A study of Mus musculus with 4 samples.

Results

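The nuclear lamina and LINC complex genes are 10 genes named in advance, *Lmna*, *Lmnb1*, *Lmnb2*, *Sun1*, *Sun2*, *Syne1*, *Syne2*, *Syne3*, *Emd* and *Tmpo*, and were taken by symbol from the 55450 genes of the count table. Each symbol occurred once, and all 10 genes passed the filter on low counts. They were measured by RNA-seq in MLO-Y4 cells, a mouse osteocyte-like line recorded as wild type, which was established from a mouse carrying an immortalizing large T antigen under the osteocalcin promoter. The cells of the 2 loaded libraries grew on silicone membranes coated with collagen I. They were stretched in all directions of the plane, with 20% strain at a frequency of 0.5 Hz, over 12 h. The cells of the 2 unloaded libraries spent the same 12 h in that system's incubator. According to the sample records they grew on ordinary culture plates, so that stretch and culture surface cannot be told apart. Both groups started at 60% confluency, and the comparison asks which transcripts differ after loading.

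The lamina is a meshwork of lamin filaments under the inner nuclear membrane. The A-type lamins, both made from *Lmna*, and the B-type lamins, made from *Lmnb1* and *Lmnb2*, give the nucleus its stiffness and hold chromatin at its edge. LINC complexes span the nuclear envelope, with SUN proteins in the inner membrane gripping the KASH tails of nesprins in the outer membrane, and nesprins bind actin, intermediate filaments and motor proteins. In osteocytes and other cells that sense force, this chain is a known route by which strain on the cytoskeleton reaches the nucleus. Emerin (*Emd*) and the lamina-associated polypeptides of *Tmpo* share the LEM domain, which binds chromatin through the protein BAF.

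None of the lamina and LINC complex genes passed the test between loaded and unloaded cells. With edgeR's quasi-likelihood F test, 0 of 10 genes had an adjusted p under 0.01, where 0.0983% of the 16269 tested genes had one, and 0 of 10 had one under 0.05, where 0.904% had one. The smallest adjusted p was 0.383, for *Lmnb1*. At an unadjusted p under 0.05 the counts were 0 of 10 with edgeR, where 14.3% of all tested genes passed, 0 of 10 with limma-voom, where 14.9% passed, and 1 of 10 with DESeq2. DESeq2 was run without the filter on low counts, and 7.32% of its 26564 genes passed, a share over another set of genes than the 16269. The 1 gene of the 10 that passed with DESeq2 was *Sun2*, with a DESeq2 adjusted p of 0.319. The log2 fold change was above 0 in 4 genes and below 0 in 6, against 48.5% and 51.5% of all tested genes. Its median was -0.05, against -0.01 over all tested genes. The 95% interval of the change held 0 for all 10 genes and lay within a 2-fold change in either direction for 9 of them, against 66.5% of all tested genes. For these 9 genes the intervals ran from 0.683-fold to 1.61-fold at their extremes, and *Syne3* was the gene outside.

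**Figure D1:**
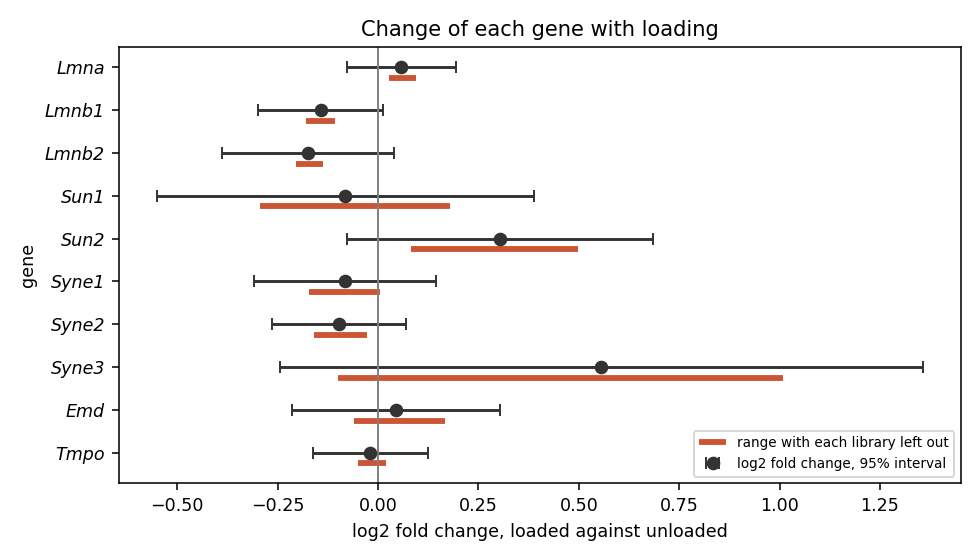
The log2 fold change of each of the 10 genes in loaded against unloaded cells (x axis), with black bars for the 95% interval of edgeR's quasi-likelihood test and orange bars for the range of the fold change when each library was left out. All 10 black bars cross 0, and *Syne3* and *Sun1* have the widest ones.

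The bases before RefSeq transcript starts of these genes were read because the study asks about NRF2. NRF2 binds the antioxidant response element, TGACNNNGC. RefSeq starts (GRCm38.p6) gave 15 windows of 250 bases for 9 of the 10 genes, all but *Lmnb1*. The element (both strands were searched for each motif) was found in 0 of the 15 windows, against 10.2% of 32851 windows of all genes, and the AP-1 letters TGACTCA in 0 of 15, against 4.46%. The GC box GGGCGG stood in 8 of 15 windows (32.7% of all), the CCAAT box in 6 (33.8%), the cell cycle homology region TTTGAA in 2 (15.99%) and TATAAA in 2 (12.4%). A match, or its absence, describes these letters in these windows only. The windows of *Lmna*, *Syne1*, *Syne3* and *Tmpo* lie inside these genes as annotated in GENCODE M21. So do the *Sun1* window at 139214908-139215157 and the *Lmnb2* window at 80906413-80906662. The *Syne2* window (75818068-75818317) runs across the annotated start at 75818134. A window inside a gene does not show the bases before the annotated 5′ end, which is at 88509956 for *Lmna* and 105009809 for *Syne3*. The windows of *Lmna* (chr3:88503353-88503602), *Lmnb2* (chr10:80918246-80918495) and *Syne3* (chr12:104998678-104998927), all on the minus strand, are printed 5′ to 3′ up to the base before the start farthest upstream in RefSeq, with matches to any of the 6 motifs in capitals. The first pair are genes whose groups did not overlap, and the last is the gene with the largest difference. The matches in them are 1 GC box in *Lmna*, as its reverse complement, and 1 in *Lmnb2*, and *Syne3* has none.
Lmna: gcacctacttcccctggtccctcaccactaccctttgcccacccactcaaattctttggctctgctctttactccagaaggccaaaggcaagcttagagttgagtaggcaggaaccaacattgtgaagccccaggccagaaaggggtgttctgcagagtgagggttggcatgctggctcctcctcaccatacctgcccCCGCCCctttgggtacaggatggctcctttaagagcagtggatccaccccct
Lmnb2: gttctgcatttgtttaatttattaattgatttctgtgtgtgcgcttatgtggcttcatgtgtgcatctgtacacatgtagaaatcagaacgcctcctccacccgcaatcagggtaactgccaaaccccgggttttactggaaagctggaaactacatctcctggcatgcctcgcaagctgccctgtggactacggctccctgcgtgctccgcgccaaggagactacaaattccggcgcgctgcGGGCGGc
Syne3: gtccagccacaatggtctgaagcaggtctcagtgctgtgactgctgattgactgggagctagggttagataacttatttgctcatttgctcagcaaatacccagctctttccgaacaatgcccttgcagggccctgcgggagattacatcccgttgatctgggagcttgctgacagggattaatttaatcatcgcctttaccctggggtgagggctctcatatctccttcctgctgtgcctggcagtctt

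The 4 libraries held between 28941994 and 32185693 counts, and their TMM factors lay between 0.983 and 1.01. Levels are given as TMM-normalized CPM, the count of a gene scaled by the library total times the TMM factor. The 15 osteocyte and osteoblast markers, 10 of which were tested, summed to 3644 and 3572 CPM in unloaded and 3405 and 3513 CPM in loaded libraries. Most of each sum came from 2 collagen genes. *Col1a1* was at 993 and 1032 CPM in unloaded and 931 and 976 CPM in loaded libraries. *Col1a2* was at 1504 and 1396, then 1296 and 1413 CPM. *Fgf23*, *Sp7*, *Alpl* and *Bglap* had at most 25 counts in a library. *Pdpn* was at 147 ± 5.73 CPM in unloaded and 222 ± 9.13 CPM in loaded cells (SD, n = 2 each), with an edgeR adjusted p of 0.0334 and a DESeq2 adjusted p of 2.23e-08. *Spp1* was at 407 ± 2.24 CPM in unloaded and 287 ± 20.3 CPM in loaded cells, with an edgeR adjusted p of 0.0405 and a DESeq2 adjusted p of 9.56e-07. *Gja1* was at 497 ± 4.63 CPM in unloaded and 535 ± 69.9 CPM in loaded cells, *Dmp1* had 12 to 14 counts per library, *Sost* had at most 4, and *Mepe* and *Ibsp* were at 0. Of 5 macrophage markers, *Tyrobp* was at 0 and *Ptprc* and *Adgre1* had at most 4 counts, while *Csf1r* carried nearly all of the summed level (1575 and 1585 CPM in unloaded, 1559 and 1563 CPM in loaded libraries). The summed levels of 4 endothelial, 4 epithelial and 3 adipocyte markers stayed under 10 CPM in every library, at 2.18 to 3.37, 0.297 to 0.792 and 6.96 to 7.85 CPM in unloaded and 1.71 to 2.91, 0.772 to 0.837 and 7.87 to 9.29 CPM in loaded libraries, with *Epcam*, *Krt5* and *Adipoq* at 0. The endothelial *Kdr* had 0 and 0 counts in unloaded and 17 and 14 in loaded libraries.

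To compare levels between genes, CPM was divided by the length of the annotated exons. *Lmna* stood first, at 122 ± 4.53 CPM per kb in unloaded and 127 ± 2.43 in loaded cells (SD, n = 2 each), above 98.1% of the tested genes. *Lmnb1* came second with 72.9 ± 0.855 and 66.0 ± 2.22 CPM per kb. *Tmpo* (33.7 ± 1.01 and 33.3 ± 0.64) and *Emd* (30.4 ± 3.52 and 31.3 ± 0.454) followed with ranges over the 4 libraries that met. *Lmnb2* was next, at 16.7 ± 0.616 and 14.8 ± 0.105. The LINC complex genes lay lower. The means over all 4 libraries were 13.5 CPM per kb for *Syne2*, 12.7 for *Sun2*, 11.1 for *Sun1* and 9.84 for *Syne3*, and neighbours in this order overlapped. *Syne1* was last, at 3.17 ± 0.21 and 2.997 ± 0.255 CPM per kb, and was the one gene of the 10 below the median of all tested genes (4.90 CPM per kb).

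**Figure D2:**
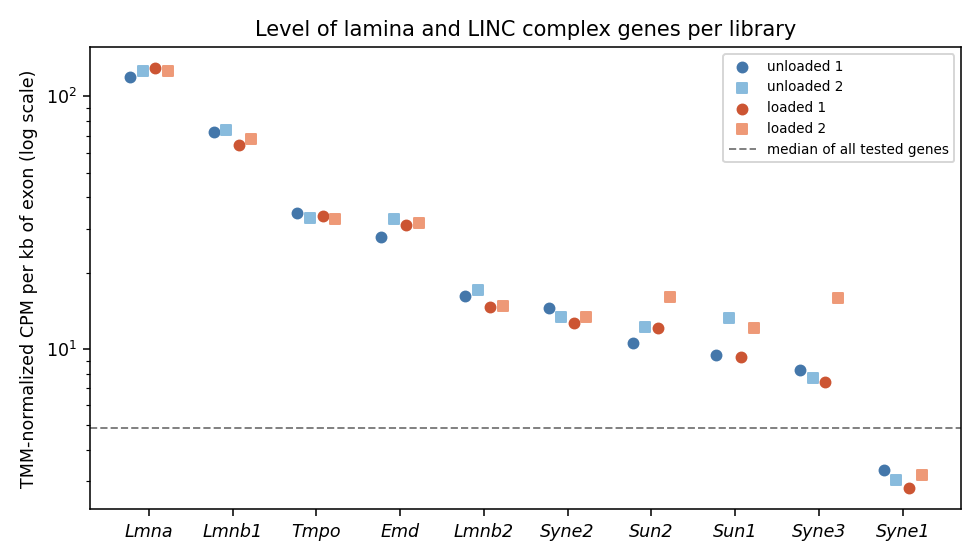
TMM-normalized CPM per kb of exon (y axis, log scale) of the 10 genes in each of the 4 libraries, in order of their mean, with the median of all tested genes dashed. *Lmna* lies between 119 and 129 CPM per kb in every library and *Syne1* between 2.82 and 3.32, and loaded replicate 2 stands above the other libraries in *Syne3*.

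The annotated exon length enters this order. *Syne1* has 40491 bases of exon and a longest transcript of 27908, and *Tmpo* has 10998 and 4441. When the longest transcript was used instead, *Tmpo* (83.0 CPM per kb) passed *Lmnb1* (72.4). *Sun1* (20.3) moved from the eighth to the fifth place, above *Lmnb2* (19.1).

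*Lmna* encodes lamin A and lamin C, which the gene counts do not separate. Its expression was 696 and 734 CPM in the unloaded libraries and 754 and 734 CPM in the loaded libraries. The loaded libraries lay higher, although unloaded replicate 2 and loaded replicate 2 differed only after the decimal point. The log2 fold change was 0.06 (standard error 0.0557, edgeR adjusted p = 0.701), with a 95% interval from -0.08 to 0.19. *Lmna* (ENSMUSG00000028063.15) lies on chromosome 3 from 88480147 to 88509956.

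Both B-type lamins were lower in each loaded library than in either unloaded library. *Lmnb1* (chromosome 18, 56707813 to 56753424), which encodes lamin B1, was at 214 and 218 CPM in unloaded and 191 and 200.2 CPM in loaded libraries. The difference was -0.14 on the log2 scale (standard error 0.0639, edgeR adjusted p = 0.383), with an interval from -0.30 to 0.01. *Lmnb2* (chromosome 10, 80901203 to 80918245), which encodes lamin B2, was at 69.6 and 73.3 CPM in unloaded and 62.9 and 63.6 CPM in loaded libraries. Its difference was -0.17 (standard error 0.088, edgeR adjusted p = 0.434), with an interval from -0.39 to 0.04. These 2 and *Lmna* were the 3 genes of the 10 whose groups did not overlap, against 46.6% of all tested genes, with 2 of 10 apart on the lower side, against 24.5%, and 1 of 10 on the higher side, against 22.1%.

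Proliferation markers were lower beside the B-type lamins. Of 21 such genes, 20 had a log2 fold change below 0, against 51.5% of all tested genes, with a median of -0.15. Their summed level was 6901 and 6547 CPM in unloaded and 5669 and 5970 CPM in loaded libraries, and 14 of 21 stood apart on the lower side, against 24.5% of all tested genes. At an unadjusted p under 0.05, 9 were lower (7.46% of all tested genes), and at an edgeR adjusted p under 0.01, 0 of 21. *Mki67*, the proliferation antigen, had an edgeR adjusted p of 0.0966 and a log2 difference of -0.32, and it passed with DESeq2 (adjusted p = 0.00235, where 2.85% of the 12659 genes to which DESeq2 gave an adjusted p passed 0.01). *Top2a*, a DNA topoisomerase of dividing cells, was at -0.30 (edgeR adjusted p = 0.143), and *Mcm7*, a subunit of the replication helicase, at -0.28 (edgeR adjusted p = 0.155). The DESeq2 adjusted p-values were 0.0105 for *Top2a* and 0.0558 for *Mcm7*. Without unloaded replicate 1, 17 of 21 were below 0 and 3 were lower at an unadjusted p under 0.05. In bulk RNA a smaller share of cycling cells and less RNA per cell cannot be told apart, and the part of either in the lamin B values was not tested.

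**Figure D3:**
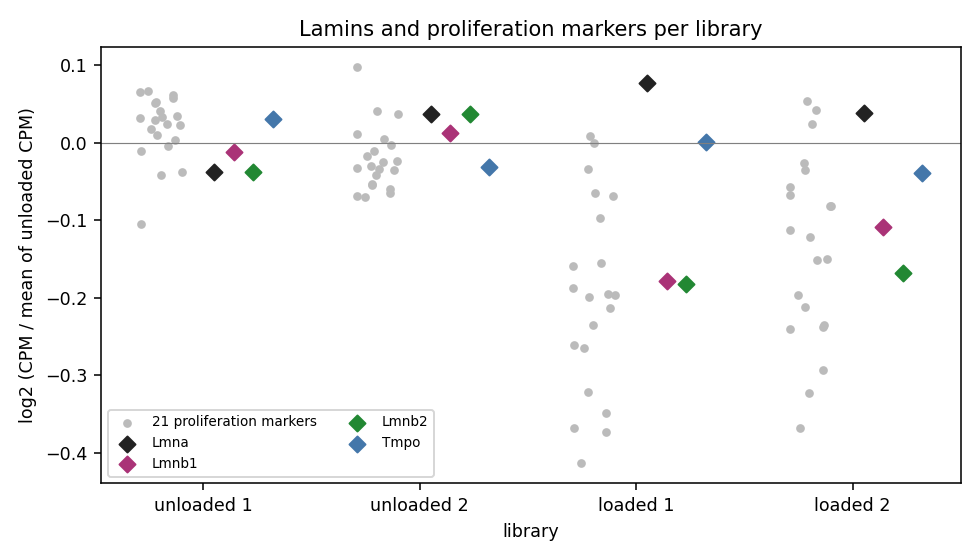
The log2 ratio of CPM in each library to the mean of the unloaded libraries (y axis), for 21 proliferation markers (grey points) and for *Lmna*, *Lmnb1*, *Lmnb2* and *Tmpo* (diamonds). In the loaded libraries *Lmnb1* and *Lmnb2* lie below *Tmpo* and *Lmna*. The spread of the proliferation markers takes in *Lmnb1*, *Lmnb2* and *Tmpo* in each loaded library, and *Lmna* in loaded replicate 2.

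*Tmpo* encodes the lamina-associated polypeptides (LAP2), whose isoforms the gene counts do not separate. Its values were 379 and 363 CPM in unloaded and 371 and 361 CPM in loaded libraries, and the groups overlapped. The log2 fold change was -0.02 (standard error 0.0586, edgeR adjusted p = 0.923), with an interval from -0.16 to 0.12. *Emd*, which encodes emerin, was at 70.1 and 82.7 CPM in unloaded and 78.0 and 79.7 CPM in loaded libraries, so that the loaded values lay inside the unloaded range. Its log2 fold change was 0.05 (standard error 0.106, edgeR adjusted p = 0.895). A pseudogene, *Gm14686*, lies within the exons of *Emd* on the same strand over 343 bases, which is 13.6% of its exon length, and had 116 counts over all 4 libraries.

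The SUN genes varied more between replicates than the lamins. *Sun1* (chromosome 5, 139200637 to 139249840) was at 72.1 and 101 CPM in unloaded and 71.0 and 92.4 CPM in loaded libraries. In both groups replicate 2 was the higher, by 0.48 and 0.38 on the log2 scale, against a group difference of -0.08 (standard error 0.193, edgeR adjusted p = 0.896). *Sun2* (chromosome 15, 79724070 to 79742536), the other SUN protein gene, was at 57.5 and 66.1 CPM in unloaded and 65.5 and 87.1 CPM in loaded libraries. Loaded replicate 1 lay just under unloaded replicate 2, and loaded replicate 2 lay above all others. The group difference was 0.30 (standard error 0.157, edgeR adjusted p = 0.445), with an interval from -0.08 to 0.69. It was 0.08 without loaded replicate 2 and 0.50 without loaded replicate 1.

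The giant nesprins are the longest genes of the 10. *Syne1* (chromosome 10, 5020917 to 5551482), which encodes nesprin-1, was at 134 and 122 CPM in unloaded and 114 and 129 CPM in loaded libraries. Its log2 fold change was -0.08 (standard error 0.0925, edgeR adjusted p = 0.747). *Syne2* (chromosome 12, 75818134 to 76110926), which encodes nesprin-2, was at 390 and 357 CPM in unloaded and 340 and 358 CPM in loaded libraries, with a difference of -0.10 (standard error 0.0688, edgeR adjusted p = 0.581) that ranged from -0.16 without unloaded replicate 2 to -0.03 without unloaded replicate 1. The groups overlapped in both genes. Gene counts do not separate the long isoforms, which carry the actin-binding domain, from the short ones. Among 1253 tested genes with at least 10 kb of exon the median log2 fold change was -0.01, and over the shorter length classes it ran from -0.02 to 0.02.

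*Syne3*, which encodes nesprin-3, a link to intermediate filaments through plectin, had the largest difference of the 10 genes, which rested on 1 library. Its counts were 1328 and 1292 in unloaded and 1332 and 2644 in loaded libraries, or 45.7 and 42.6, then 41.3 and 88.7 CPM. Loaded replicate 1 was the lowest of the 4 libraries and loaded replicate 2 the highest. The log2 fold change was 0.56 (standard error 0.328, edgeR adjusted p = 0.505), with an interval from -0.24 to 1.36. Without loaded replicate 2 it was -0.10, and without loaded replicate 1 it was 1.01 (edgeR adjusted p = 0.0573). Among 9684 tested genes of at least 10 CPM, 21 (0.217%) had loaded replicate 2 at least 1 log2 unit above loaded replicate 1 with the unloaded replicates within 0.3. *Syne3* (chromosome 12, 104929933 to 105009809) was one of them. *Tor1aip2*, which encodes an activator of torsin and is named here because of its values, had a similar pattern, at 51.5, 51.6, 51.6 and 97.6 CPM in the same order of libraries. Over the 10 genes, 3 (*Sun1*, *Sun2* and *Syne3*) had replicates over 0.3 apart on the log2 scale in a group, against 41.1% of all tested genes.

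Ratios of level per kb were taken within each library, since a ratio does not depend on the library's scaling. *Lmna* to the sum of *Lmnb1* and *Lmnb2* was 1.35 and 1.39 in unloaded and 1.63 and 1.52 in loaded libraries. The loaded values were both higher, by 0.21 on the log2 scale, against 0.04 and 0.10 between replicates. *Lmnb1* to *Lmnb2* was 4.46 and 4.30 in unloaded and 4.39 and 4.56 in loaded libraries, which overlapped. *Sun1* to *Sun2* was 0.896 and 1.09 in unloaded and 0.773 and 0.757 in loaded libraries, lower by -0.37 on the log2 scale, against 0.28 between the unloaded replicates. By the longest transcript it was 1.34 and 1.63 in unloaded and 1.16 and 1.13 in loaded libraries. Which of these SUN genes stood higher therefore depended on the length used. *Syne1* to *Syne2* was 0.228 and 0.226 in unloaded and 0.221 and 0.237 in loaded libraries. The exact two-sided permutation test gave p = 0.333 for the first and the third of these 4 ratios, which is the smallest value that 2 against 2 libraries allow, so no ratio could pass the test. The exact permutation test gave p = 0.667 for the second ratio and p = 1 for the last.

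**Figure D4:**
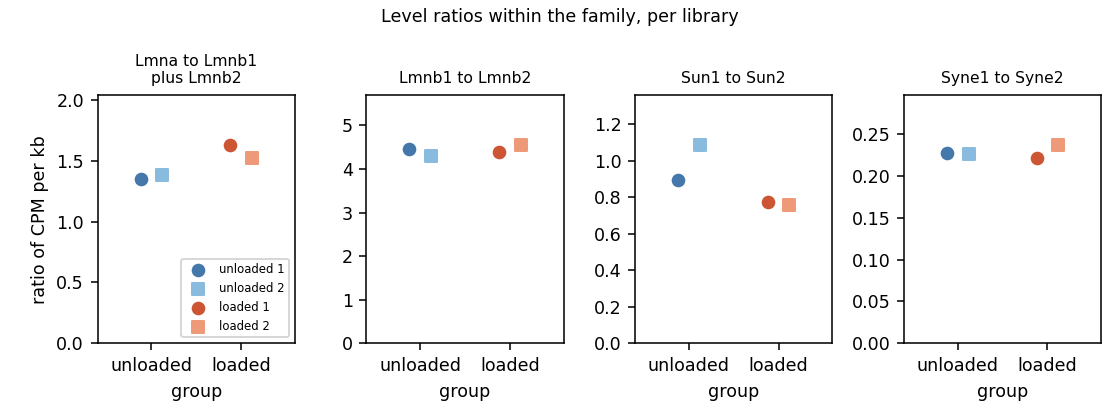
Ratios of CPM per kb of annotated exon within each library (y axis, starting at 0) in unloaded and loaded cells (x axis). Circles show replicate 1 and squares replicate 2, and the absolute ratios depend on the length used. The *Lmna* to B-type lamin ratio is 1.35 and 1.39 in unloaded and 1.63 and 1.52 in loaded cells, and the *Sun1* to *Sun2* ratio is lower in both loaded libraries.

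The other genes of the nuclear envelope and of the force chain were described from lists. Among 13 other genes for nuclear envelope proteins and proteins that act with them, 5 had a log2 fold change above 0 and 8 below. The median was -0.04, and 0 had an edgeR adjusted p under 0.01. Of all tested genes 48.5% were above 0 and 51.5% below, and these shares apply to the lists that follow. *Tor1b*, a torsin ATPase, was at 35.0 and 40.8 CPM in unloaded and 26.8 and 30.4 CPM in loaded libraries (log2 difference -0.41, edgeR adjusted p = 0.224). *Tor1aip1*, another torsin activator, was at -0.20 (edgeR adjusted p = 0.454). *Lbr*, the lamin B receptor, was at 156 CPM in unloaded and 167 CPM in loaded cells (edgeR adjusted p = 0.581). Of the 6 other SUN and KASH genes, *Sun3*, *Sun5* and *Ccdc155* (KASH5) had no count, *Syne4* and *Lrmp* had at most 12 in a library, and *Spag4* passed the filter with 48 to 104 counts.

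The 5 genes for enzymes that mature lamin precursors gave 3 differences above 0 and 2 below, with a median of 0.05. *Zmpste24*, the protease that cleaves prelamin A, was at 192 and 182 CPM in unloaded and 197 and 219 CPM in loaded libraries (log2 difference 0.16, edgeR adjusted p = 0.432). *Fntb*, a farnesyltransferase subunit, was at 0.28 (edgeR adjusted p = 0.589), and *Icmt*, which methylates the farnesylated end, at 0.05 (edgeR adjusted p = 0.837).

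Of 14 genes for cytoskeletal linkers and motors and for proteins that act with them, 9 were above 0 and 5 below. The shares over all tested genes were 48.5% and 51.5%. The median was 0.06, and 0 had an edgeR adjusted p under 0.01. At an unadjusted p under 0.05, 2 were higher (6.88% of all tested genes) and 1 lower (7.46%). *Fhod1*, a formin that joins nesprin-2 to actin, was at 73.4 and 72.7 CPM in unloaded and 57.8 and 53.0 CPM in loaded libraries, a log2 difference of -0.40 (standard error 0.0935, edgeR adjusted p = 0.143). *Kif5b*, the heavy chain of kinesin-1, was at 540.3 and 479.6 CPM in unloaded and 589 and 686 CPM in loaded libraries, a log2 difference of 0.32 (standard error 0.0949, edgeR adjusted p = 0.209). *Ndel1*, a dynein regulator, was at 0.30 (edgeR adjusted p = 0.238). Of the 14 genes, 6 stood apart on the higher side (22.1% of all tested genes) and 2 on the lower side (24.5%), with these 3 among them. DESeq2 called none of the 14 at an adjusted p under 0.01. Its adjusted p-values were 0.0373 for *Fhod1*, 0.0173 for *Kif5b* and 0.211 for *Ndel1*.

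Nuclear pore genes were split as well. Of 30 listed subunits, 28 were tested, with 18 above 0, 10 below and a median of 0.03, and 0 had an edgeR adjusted p under 0.01. *Ahctf1* (ELYS), which seeds pore assembly on chromatin, was at 193 and 180.2 CPM in unloaded and 227 and 235 CPM in loaded libraries, a log2 difference of 0.31 (standard error 0.0684, edgeR adjusted p = 0.134). *Nup43*, a subunit of the outer ring, was at 28.9 and 28.8 CPM in unloaded and 23.1 and 21.2 CPM in loaded libraries, a log2 difference of -0.38 (standard error 0.105, edgeR adjusted p = 0.188). *Aaas*, which encodes aladin, was at -0.22 (edgeR adjusted p = 0.292). The DESeq2 adjusted p-values were 0.0167 for *Ahctf1*, 0.286 for *Nup43* and 0.365 for *Aaas*. *Nup210* had no count, and *Nupl1*, a subunit of the central channel, had 0 and 0 counts in unloaded and 9 and 9 in loaded libraries, so neither was tested.

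Of 11 heterochromatin genes linked to the nuclear edge, 2 were above 0 and 9 below, with a median of -0.06, and 0 had an edgeR adjusted p under 0.01. *Rb1*, the retinoblastoma protein gene, was at -0.23 (edgeR adjusted p = 0.377). *Ehmt2*, a histone H3 lysine methyltransferase, was at -0.16 (edgeR adjusted p = 0.432), and *Suv39h1*, another, was at -0.34 (edgeR adjusted p = 0.478), with loaded replicate 1 at 34.2 CPM and the other libraries at 51.0 to 56.5 CPM.

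**Figure D5:**
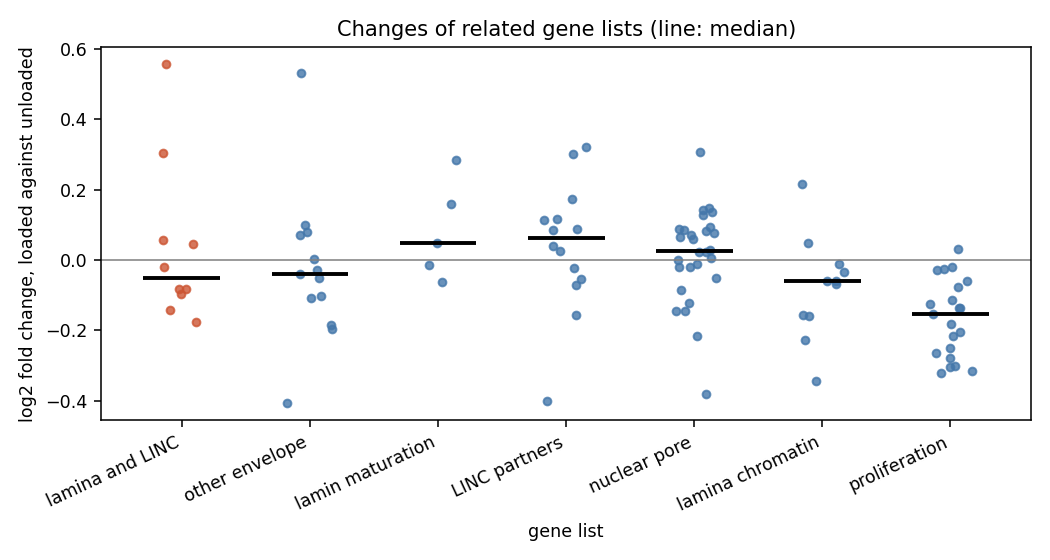
The log2 fold change of each tested gene (y axis) in loaded against unloaded cells, for the 10 lamina and LINC complex genes (orange) and 6 related lists (blue), with black lines for the medians. The proliferation markers lie lowest, with a median of -0.15, and the medians of the other lists lie between -0.06 and 0.06.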

How the data were processed

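MLO-Y4 cells were profiled by RNA-seq after depletion of ribosomal RNA, with 2 libraries per group. After removal of adaptors and reads of low quality, the authors aligned to mm10 with HISAT2 (version 2.1.0), assembled transcripts with StringTie (version 1.3.5) and derived counts per gene with StringTie's prepDE script, which converts coverage to whole numbers with an assumed read length. The deposited values are these raw counts, without normalization. The annotation release, strandedness and read length are not given in the sources used here. All 55450 gene identifiers, versions included, were found in GENCODE M21 (GRCm38), which gave symbols, coordinates and exon lengths.

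Samples were grouped by title. Genes were filtered with filterByExpr (count minimum 10, 16269 genes kept), TMM-normalized and tested with glmQLFit and glmQLFTest of edgeR 4.0.16 in R 4.3.3. P-values were adjusted over all tested genes by the Benjamini-Hochberg method, with a threshold of 0.01 as in the study. The standard error is the size of the log2 fold change divided by the square root of F, and the 95% interval uses a t distribution on 6.09 degrees of freedom. Alternatives were DESeq2 1.42.0, limma-voom (limma 3.58.1), RLE and upper-quartile factors, other filters, a looser threshold, the replicate number as a block and leaving out each library. The procedure was tested on simulated data. The genes, lists and tests were chosen with earlier results of these data known. All 10 genes are named, and from each list genes with an adjusted p under 0.05 or else up to 3 of smallest p, while others are named to describe a list. A floor of 3 counts corresponds to 0.093 to 0.103 CPM and takes in counting error alone. P-values measure the spread between libraries, and the labels do not describe these as separate cultures or independent experiments.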

Additional observations from a re-analysis of the deposited data

How the results depend on the processing

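Of 110 fold changes of the 10 genes under other settings, 104 kept their direction and 0 passed an adjusted p of 0.01. The 6 that turned all came from leaving out 1 library, in *Emd* (-0.0607) and *Tmpo* (0.0191) without unloaded replicate 1, *Sun1* (0.179 without unloaded replicate 2 and 0.0995 without loaded replicate 1), *Syne1* (0.00491 without loaded replicate 1) and *Syne3* (-0.0986 without loaded replicate 2). Their opposite extremes were 0.168, -0.0500, -0.295, -0.173 and 1.01. With a library left out, the group of 1 sample is assumed to vary like the other. The number of these genes with an unadjusted p under 0.05 was 0, 1 with DESeq2, 1 under the replicate block and 0 to 2 with a library left out, where the 2 were *Sun2* and *Syne3* without loaded replicate 1. Over all genes, 16 passed an adjusted p of 0.01, and the count was 361 with DESeq2, which also replaced the filter on low counts by its own and gave 12659 adjusted p-values, 29 with at least 10 counts in every library, 0 without a filter, 147 at an adjusted p of 0.05 and 0 to 58 with a library left out (0 without either loaded library, 50 and 58 without unloaded replicates 1 and 2). It was 0 when the replicate number entered as a block, with 1839 genes at an unadjusted p under 0.05. Same-numbered libraries did not deviate together (correlation across genes -0.0728), so the number is not taken as a pairing. Of the related lists, cell type markers aside, 0 genes passed in edgeR and 1 with DESeq2. The log2 difference of the *Lmna* to B-type lamin ratio ranged from 0.16 to 0.26, that of *Sun1* to *Sun2* from -0.51 to -0.23, that of *Lmnb1* to *Lmnb2* from 0.004 to 0.06 and that of *Syne1* to *Syne2* from -0.04 to 0.06 over fits on 3 libraries. With 2 libraries per group, the intervals are 0.683-fold to 1.31-fold for *Sun1*, up to 1.61-fold for *Sun2* and up to 2.56-fold for *Syne3*.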
